A study of Mus musculus with 12 samples.

Results

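The genes described here are 7 markers of the medial ganglionic eminence (MGE) and of the interneurons that it produces: the transcription factor genes Nkx2-1, Lhx6, Lhx8, Sox6 and Maf and the neuropeptide genes Sst and Npy. They were chosen by name from a table of 26190 genes, and all 7 were found in it and passed the filter on low counts. Their RNA was measured by bulk sequencing of whole telencephalons, cortex and basal ganglia primordia together, from wild-type C57BL/6J mouse embryos without treatment. Each of 12 libraries was 1 embryo, with 3 females and 3 males at embryonic day (E) 14.5 and 3 females and 3 males at E11.5. The study set out to compare the sexes at the 2 ages, before the perinatal surge of sex hormones.

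The MGE is a ventral bulge of the embryonic telencephalon. Sonic hedgehog signaling induces NKX2-1 in its progenitors, and NKX2-1 in turn activates Lhx6 and Lhx8. Cells that keep LHX6 and switch off NKX2-1 migrate to the cortex as GABAergic interneurons, many of which later make somatostatin or parvalbumin, whereas cells that use LHX8 contribute cholinergic and other projection neurons of the basal forebrain. Nkx2-1 and Lhx8 are also active outside the MGE, in the preoptic area, and Nkx2-1 in the hypothalamus as well.

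Each library held between 17551763 and 28355361 counts over all genes. The tissue label was checked against marker lists. The 12 cortical markers summed to 536 to 645 FPKM (fragments scaled to transcript length and library total) in the E14.5 libraries and to 195 to 207 FPKM in the E11.5 libraries, and no cortical marker was at 0. The 22 other genes of MGE-derived interneurons summed to 258 to 286 FPKM at E14.5 and to 126 to 147 FPKM at E11.5. Of these, Pvalb, the parvalbumin gene of mature basket cells, did not exceed 0.0331 FPKM at E14.5 and was at 0 in all E11.5 libraries. Markers of other tissues moved with age too: 10 erythroid genes summed to 978 to 1620 FPKM at E14.5 and to 6370 to 11400 FPKM at E11.5, and 11 mesenchymal genes to 138 to 163 FPKM at E14.5 and to 253 to 309 FPKM at E11.5. The part of these shifts in the results was not tested. In such whole-tissue RNA, fewer cells of a type and less RNA per cell cannot be told apart. At E14.5, the third embryo of each sex came from another mother than the first and second embryos, and these libraries are called the second mother's and the first mother's below. The second mother's libraries stood apart in several members.

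**Figure D1:**
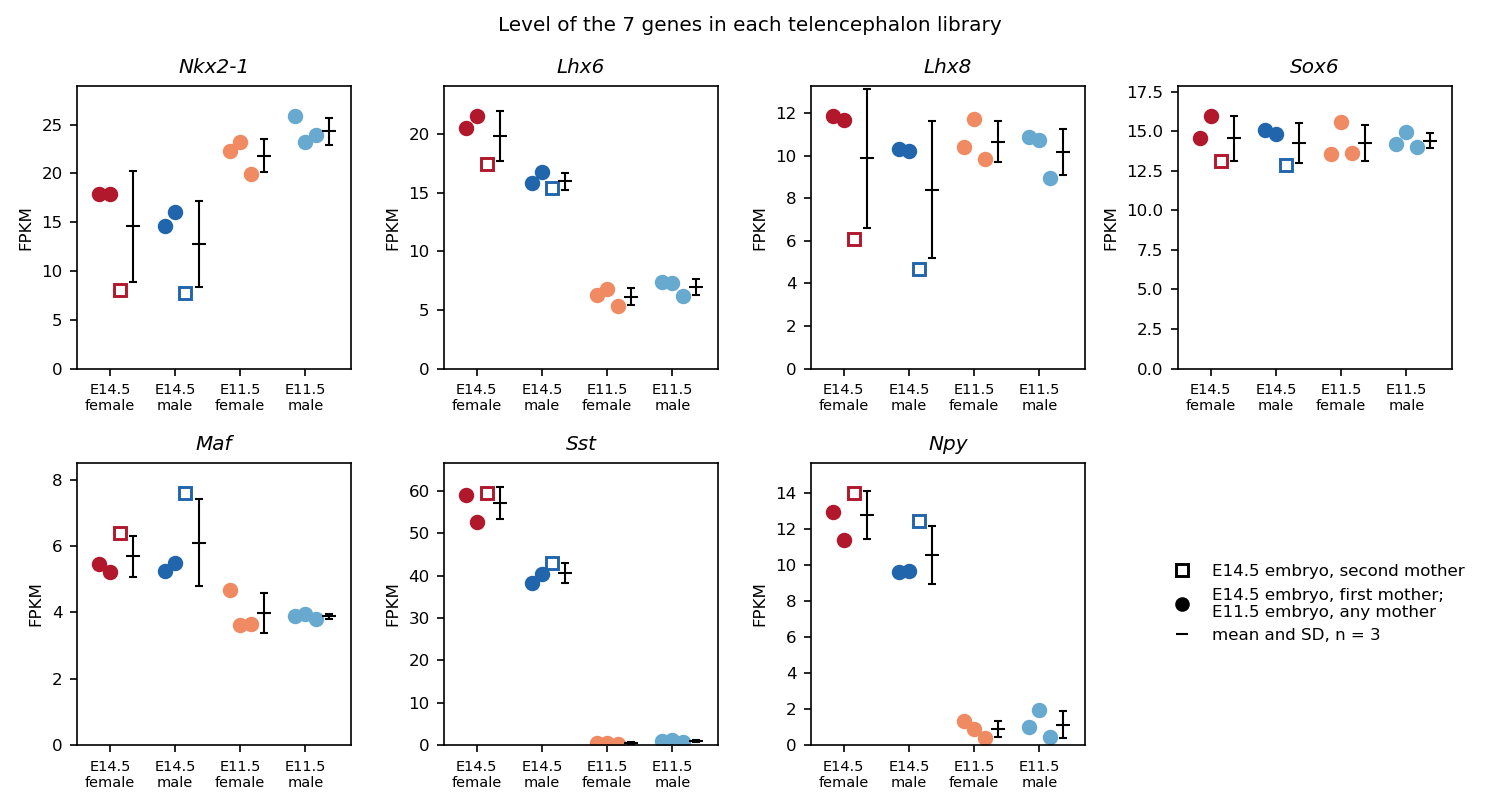
FPKM of each gene in each library (y axis from 0, a scale of its own per gene), by age and sex. Points are embryos, open squares are the second mother's embryos at E14.5, and bars give the mean and SD of 3. Sst and Npy are near 0 at E11.5, and the open squares lie well below the filled E14.5 points for Nkx2-1 and Lhx8.

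The order of the 7 genes by level in FPKM differed between the ages. FPKM divides by transcript length, from 564 bases for Npy to 9362 bases for Sox6. It corrects for no other effect of length or GC content, so the order across genes is approximate. At E14.5, Sst led with 48.8 ± 9.49 FPKM (SD, n = 6), followed by Lhx6 at 17.9 ± 2.54, Sox6 at 14.4 ± 1.19, Nkx2-1 at 13.7 ± 4.65, Npy at 11.7 ± 1.79, Lhx8 at 9.14 ± 3.01 and Maf at 5.90 ± 0.940 FPKM. Sst exceeded Lhx6, and Lhx6 exceeded Sox6, in 6 of 6 libraries, while Sox6 exceeded Nkx2-1 in 3 of 6, Nkx2-1 exceeded Npy in 4 of 6, Npy exceeded Lhx8 in 3 of 6 and Lhx8 exceeded Maf in 4 of 6. The neighbours from Sox6 to Maf were thus not separated beyond their spread. At E11.5, Nkx2-1 led with 23.1 ± 1.94 FPKM, and Sox6 at 14.3 ± 0.794, Lhx8 at 10.4 ± 0.952, Lhx6 at 6.54 ± 0.787 and Maf at 3.93 ± 0.395 FPKM followed, each above the next in 6 of 6 libraries. Npy at 1.01 ± 0.569 FPKM and Sst at 0.733 ± 0.350 FPKM were last, with Npy above Sst in 5 of 6 libraries.

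With age, 4 of the 7 genes were higher at E14.5 (Lhx6, Maf, Sst and Npy) and 1, Nkx2-1, was lower. A gene was called here where edgeR's quasi-likelihood test gave an adjusted p below 0.05 and the log2 fold change was beyond 0.5 in size. Of all 14454 genes tested, 24.4% were called higher and 19.0% lower by the same rule. With a correction for GC content and length, the same 5 members were called in the same directions, while 2865 of 6518 calls over all genes were higher, against 3521 of 6265 without it.

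Nkx2-1 encodes the homeodomain selector of MGE identity and lies on chromosome 12 (GRCm38, 56531935 to 56536908, minus strand). Its level was 17.9, 17.9 and 8.03 FPKM in E14.5 females and 14.6, 15.99 and 7.75 FPKM in E14.5 males, against 22.3, 23.2 and 19.98 FPKM in E11.5 females and 25.8, 23.2 and 23.9 FPKM in E11.5 males. All 6 E14.5 libraries were under all 6 E11.5 libraries, and the lowest of them were those of the second mother. The log2 fold change of the counts, E14.5 over E11.5, was -0.70 (SE 0.22, adjusted p = 0.0135). Without the second mother's libraries, an alternative chosen after the data were seen, it was -0.43 (adjusted p = 2.56e-08), short of the limit of 0.5. The E14.5 embryos left then share 1 mother, so this p-value leaves out the spread between mothers at E14.5.

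Lhx8, a LIM homeobox gene of cholinergic and other basal forebrain neurons, lies on chromosome 3 (154306294 to 154330560, minus strand). It had 11.9, 11.7 and 6.11 FPKM in E14.5 females and 10.3, 10.2 and 4.69 FPKM in E14.5 males, against 10.4, 11.7 and 9.84 FPKM in E11.5 females and 10.9, 10.7 and 8.95 FPKM in E11.5 males. The embryos of the first mother overlapped with the E11.5 embryos, and those of the second mother were under every other library. The log2 fold change with age was -0.14 (SE 0.20, adjusted p = 0.533). It was 0.12 (adjusted p = 0.0699) without the second mother's libraries, which leaves 1 mother at E14.5.

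The difference between the mothers at E14.5 was read from the mother term of the fit with the litter as a block, chosen after these values were seen. It compares the embryos of 1 mother with those of another and says nothing of other mothers. Nkx2-1 was lower in the second mother's embryos, by a log2 fold change of -1.04 (SE 0.064, adjusted p = 7.23e-11), and Lhx8 by -1.0 (SE 0.077, adjusted p = 9.91e-10). These were the 2 of 7 members called, against 4.47% of all genes tested. With the GC and length correction the values were -1.04 for Nkx2-1 and -0.97 for Lhx8. The ratio of Lhx8 to Nkx2-1 was nearly the same in both litters, 0.760 and 0.605 in the second mother's 2 embryos and 0.638 to 0.708 in the first mother's 4.

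The other members differed far less between the litters. Lhx6 had a log2 fold change of -0.16 (adjusted p = 0.0196), Sox6 of -0.19 (adjusted p = 0.00175) and Maf of 0.41 (adjusted p = 0.000155), all within the limit of 0.5. Sst at 0.14 (adjusted p = 0.128) and Npy at 0.31 (adjusted p = 0.0691) did not pass the test. With the GC and length correction both passed the adjusted p, Sst at 0.24 (adjusted p = 0.00498) and Npy at 0.41 (adjusted p = 0.0121), still within the limit of 0.5. Thus Lhx6 and Sox6 had negative fold changes as well, far smaller than those of Nkx2-1 and Lhx8. Maf, Sst and Npy had positive ones, of which only that of Maf passed the adjusted p without the correction.

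**Figure D2:**
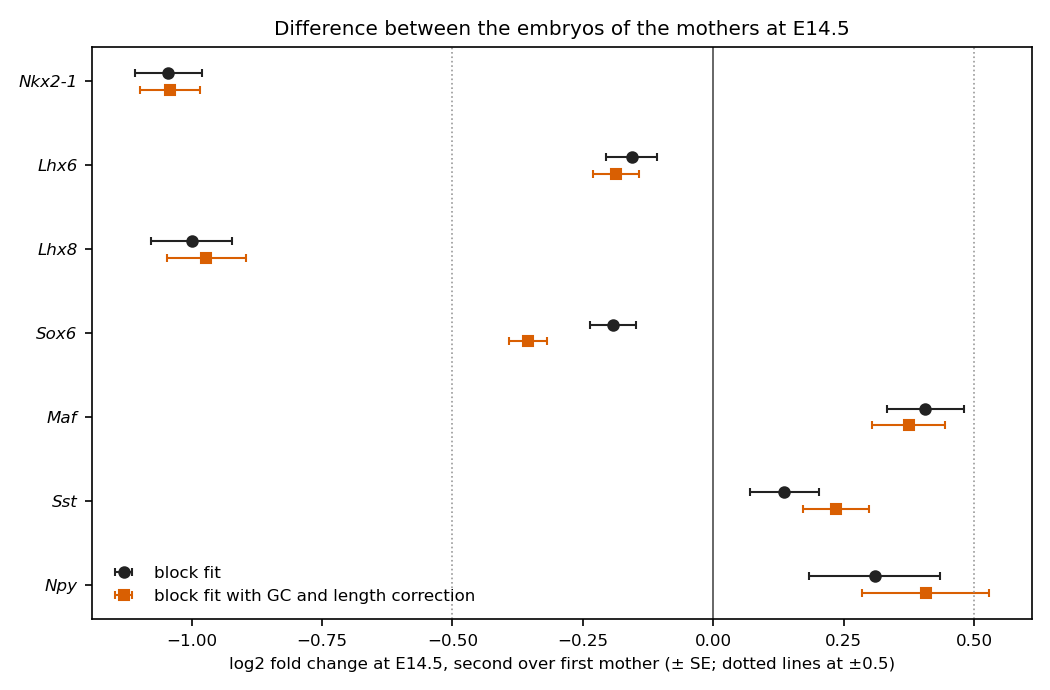
Log2 fold change at E14.5 between the 2 embryos of the second mother and the 4 of the first (x axis, bars SE) for each gene, from the block fit alone (circles) and with the GC and length correction (squares). Nkx2-1 and Lhx8 lie near -1, and the other 5 genes lie between the dotted lines at -0.5 and 0.5.

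Some genes of neighbouring regions differed between the same litters. Shh, which encodes the ventral morphogen Sonic hedgehog, had 0.508 and 0.608 FPKM in the second mother's embryos and 1.66 to 1.94 FPKM in the first mother's (log2 fold change -1.68, adjusted p = 2.19e-08). Its target genes Gli1 and Ptch1 were not called, with adjusted p values of 0.402 and 0.165. Gli1 had 1.94 and 1.34 FPKM in the second mother's embryos and 1.24 to 1.96 FPKM in the first mother's, and Ptch1 had 7.61 and 7.19 FPKM against 7.64 to 8.99 FPKM. Hmx3, a homeobox gene of the hypothalamus and preoptic area, had 0 and 0 counts in the second mother's embryos and 26, 32, 11 and 13 counts in the first mother's. Hmx2, its neighbour in the genome and partner there, had 0 and 1 counts in the second mother's embryos and 24, 40, 19 and 28 in the first mother's. Of the 12 hypothalamic and diencephalic markers tested, 3 (Hmx2, Hmx3 and Gbx2) were called lower and none higher. Over all genes, 4.47% were called in either direction. The 14 listed markers summed to 14.1 and 13.3 FPKM in the second mother's embryos, 16.7 to 24.3 FPKM in the first mother's and 31.7 to 39.0 FPKM at E11.5. Their part in the levels of Nkx2-1 and Lhx8 was not tested.

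Lhx6 encodes the LIM homeodomain factor that MGE cells keep as they leave for the cortex, and lies on chromosome 2 (36081953 to 36105408, minus strand). It had 20.5, 21.5 and 17.4 FPKM in E14.5 females and 15.8, 16.8 and 15.4 FPKM in E14.5 males, against 6.26, 6.78 and 5.33 FPKM in E11.5 females and 7.42, 7.31 and 6.16 FPKM in E11.5 males. The ages did not overlap, and each E14.5 library was at more than 15 FPKM. The log2 fold change was 1.5 (SE 0.065, adjusted p = 5.63e-11), a 2.83-fold higher count at E14.5. Lhx6 thus rose while Nkx2-1, which activates it in the MGE, was lower.

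Sox6, a SoxD factor that acts downstream of LHX6 in migrating interneurons and is also active in cortical progenitors, lies on chromosome 7 (115470872 to 116038744, minus strand) and overlaps Sox6os, an antisense gene listed at up to 6 counts per library. Sox6 had 14.6, 15.95 and 13.2 FPKM in E14.5 females and 15.1, 14.8 and 12.8 FPKM in E14.5 males, against 13.6, 15.6 and 13.6 FPKM in E11.5 females and 14.2, 14.99 and 14.04 FPKM in E11.5 males. The ages overlapped, with a log2 fold change of 0.06 (SE 0.052, adjusted p = 0.306). With the GC and length correction the value turned to -0.41 (adjusted p = 0.000247). Its transcripts have the lowest GC content of the 7 genes, 46.4%, and are the longest, at 9362 bases.

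Maf encodes a bZIP factor that MGE-derived interneurons switch on after their last division, and its entry in the table is a single transcript of 3642 bases on chromosome 8 (115703253 to 115706894, minus strand). It had 5.45, 5.23 and 6.38 FPKM in E14.5 females and 5.24, 5.48 and 7.61 FPKM in E14.5 males, against 4.69, 3.61 and 3.64 FPKM in E11.5 females and 3.89, 3.96 and 3.80 FPKM in E11.5 males. The highest values were those of the second mother's embryos, and the ages did not overlap. The log2 fold change was 0.64 (SE 0.10, adjusted p = 6.71e-05). It was 0.49 (adjusted p = 8.96e-07) without the second mother's libraries and 0.48 (adjusted p = 0.000118) in limma's test on log2(FPKM + 1), both just short of the limit. In the former the E14.5 embryos share 1 mother, so its p-value leaves out the spread between mothers there.

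The neuropeptide genes changed most. Sst, which encodes somatostatin, an inhibitory peptide of a large class of MGE-derived interneurons, lies on chromosome 16 (23889581 to 23890844, minus strand). It had 59.0, 52.7 and 59.6 FPKM in E14.5 females and 38.2, 40.5 and 43.0 FPKM in E14.5 males, against 0.588, 0.484 and 0.327 FPKM in E11.5 females and 0.962, 1.29 and 0.743 FPKM in E11.5 males. The log2 fold change was 6.17 (SE 0.11, adjusted p = 8.3e-15), 72.1-fold, which placed Sst at rank 22 from the top among 14454 genes. The E11.5 values rest on 5 to 22 counts per library.

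Npy, which encodes neuropeptide Y and is made by many somatostatin interneurons, lies on chromosome 6 (49822710 to 49829505, plus strand). It had 12.9, 11.4 and 14 FPKM in E14.5 females and 9.60, 9.64 and 12.4 FPKM in E14.5 males, against 1.32, 0.881 and 0.417 FPKM in E11.5 females and 1.02, 1.93 and 0.460 FPKM in E11.5 males. The log2 fold change was 3.58 (SE 0.23, adjusted p = 5.66e-09), 11.9-fold and rank 230 from the top. Its E11.5 counts ran from 6 to 31. For Sst and Npy alike, the lowest E14.5 library was several times higher than the highest E11.5 library.

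**Figure D3:**
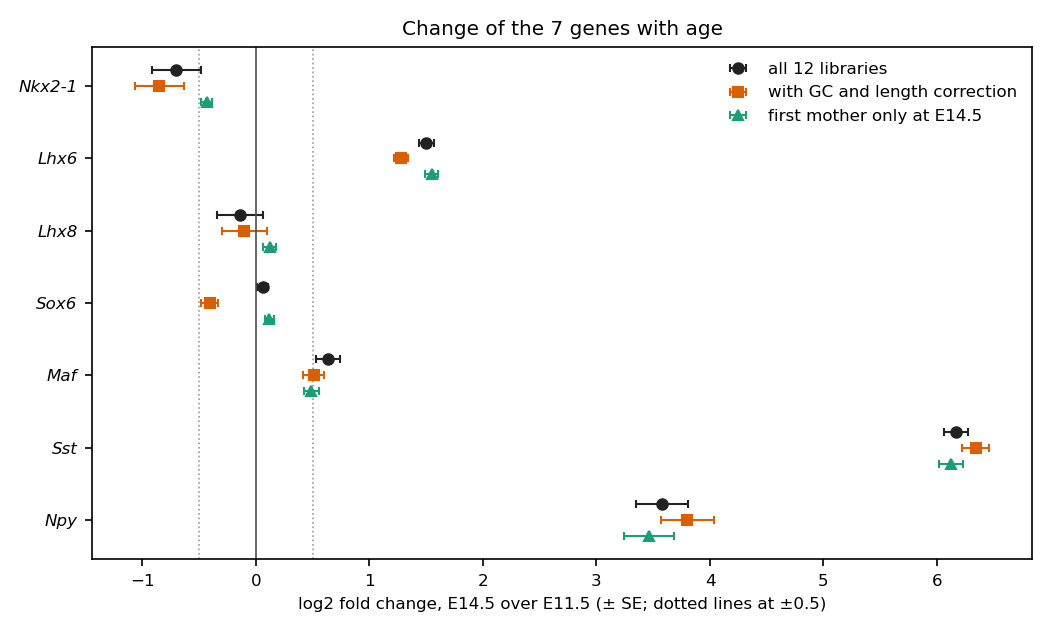
Log2 fold change of the counts, E14.5 over E11.5 (x axis, bars SE, dotted lines at -0.5 and 0.5), with all 12 libraries, with the GC and length correction, and without the second mother's libraries. Sst and Npy lie far to the right under each setting, Nkx2-1 lies to the left of 0, and Sox6 moves to the left of 0 with the correction.

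The 250 bases before the RNA start of Sst and Npy are shown because these genes had the largest changes with age. They were taken from RefSeq's GRCm38.p6 annotation, in which 6 of the 7 members matched with 13 starts in all. Capitals mark TGACGTCA, the cyclic AMP response element through which CREB is known to act on Sst.
Sst, chr16:23890845-23891094, minus strand: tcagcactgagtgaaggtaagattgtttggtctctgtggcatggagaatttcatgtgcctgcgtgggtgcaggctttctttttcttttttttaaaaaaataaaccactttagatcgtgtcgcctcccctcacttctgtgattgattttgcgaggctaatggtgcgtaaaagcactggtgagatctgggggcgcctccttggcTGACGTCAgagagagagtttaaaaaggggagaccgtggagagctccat
Npy, chr6:49822460-49822709, plus strand: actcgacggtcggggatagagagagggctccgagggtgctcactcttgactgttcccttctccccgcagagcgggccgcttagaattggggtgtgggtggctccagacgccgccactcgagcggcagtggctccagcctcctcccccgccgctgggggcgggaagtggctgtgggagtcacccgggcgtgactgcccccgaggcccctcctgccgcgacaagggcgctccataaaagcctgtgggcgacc

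Both strands of the 13 windows were searched for 3 motifs that do not overlap each other there. TGACGTCA was found once, before Sst, from position -48 relative to the start, and is held by 1.55% of 32851 promoter windows of the same length. CTCAAG, the core that NKX2-1 binds, was found once, before 1 of the 6 Sox6 starts at position -83, and 13.3% of all windows hold it. TAATTA, a core shared by LIM and DLX homeodomain factors, was found before none of the 13 starts, and 4.84% of all windows hold it. Neither of the windows before Nkx2-1 and Lhx8, the 2 members called between the litters, held any of the 3. At these shares most windows hold none, so nothing follows from this for the litter difference. The windows before Sst and Npy had GC contents of 47.2% and 69.2%.

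Ratios within a library do not depend on how libraries are scaled, so the level of each member was also set against Nkx2-1. Lhx6 was at 1.38 times the FPKM of Nkx2-1 at E14.5 (range 1.05 to 2.17 over 6 libraries) and at 0.283 times at E11.5 (range 0.257 to 0.316). The mean log2 ratio differed by 2.28 between the ages. The corresponding differences, E14.5 minus E11.5, were 0.57 for Lhx8, 0.84 for Sox6, 1.41 for Maf, 4.56 for Npy and 7.01 for Sst. All 6 ratios had p = 0.00216 in the two-sided exact permutation test over libraries (adjusted p = 0.00216), the smallest p that 6 against 6 can give, and in each the ages did not overlap. The test treats the 12 embryos as independent, though the study's table of embryos gives them 3 mothers at E11.5 and 2 at E14.5. Its p-values thus measure the spread between these embryos and not between mothers. The 6 ratios share Nkx2-1, which was itself lower at E14.5 (-0.70), so they are not 6 independent results. A gene that kept its level gives a positive difference: Lhx8 and Sox6 were not called with age on their own (-0.14 and 0.06). The denominator itself differed between the litters: in the second mother's embryos Sst was at 7.42 and 5.55 times the level of Nkx2-1, and in the first mother's at 2.53 to 3.31 times. Without the second mother the 6 differences ran from 0.55 to 6.62. Set against the mean of the pan-subpallial genes Dlx1, Dlx2, Dlx5 and Dlx6 instead, the values for Lhx8, Sox6 and Maf turned negative, at -1.18, -0.92 and -0.34, while Lhx6, Npy and Sst stayed positive, at 0.53, 2.81 and 5.26.

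**Figure D4:**
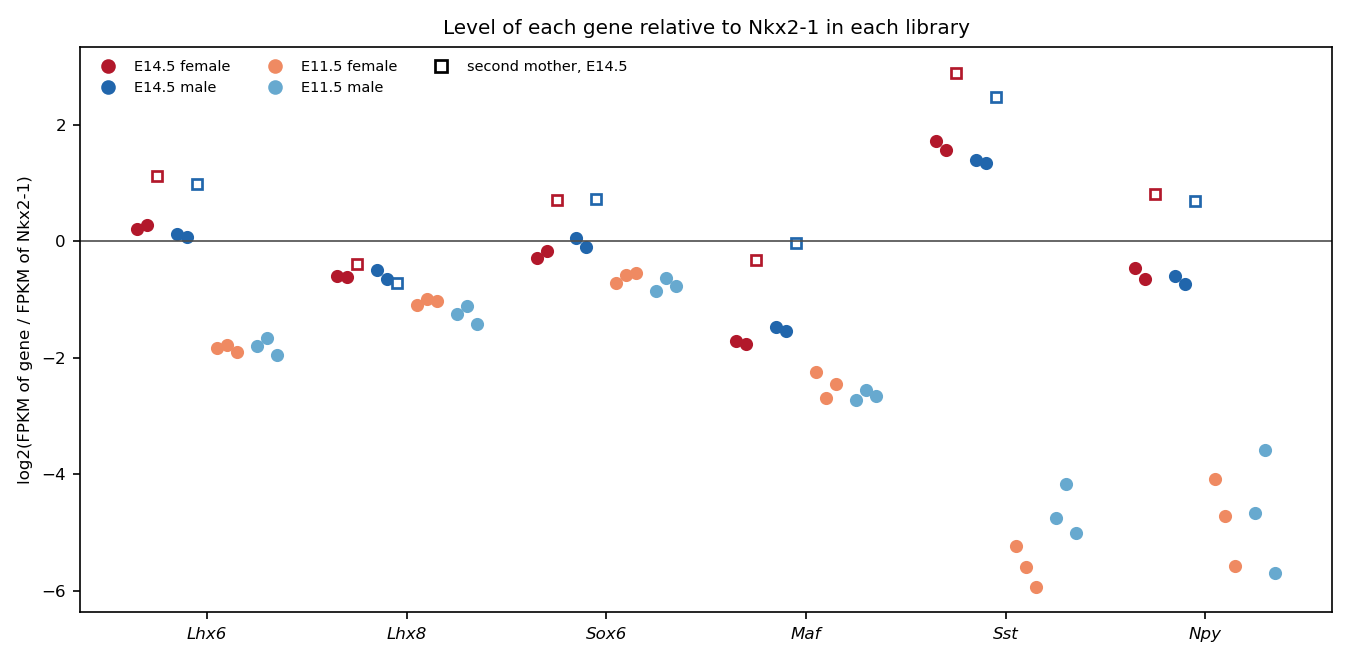
Log2 ratio of the FPKM of each gene to that of Nkx2-1 in the same library (y axis, 0 where both are equal), by age and sex, with open squares for the second mother's embryos. In every gene the E14.5 points lie above the E11.5 points, by least for Lhx8 and by most for Sst.

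The other genes of the MGE program were described by lists. Of 13 MGE progenitor and ventral patterning genes tested, 3 rose and 7 fell with age, with a median log2 fold change of -0.61 against -0.015 over all genes. By the same rule, 24.4% of all genes tested were called higher and 19.0% lower. Shh fell by 2.23 on the log2 scale, to 1.39 ± 0.653 FPKM at E14.5 against 6.79 ± 0.378 FPKM at E11.5 (SD, n = 6 each). Gli1, a transcriptional target of the pathway, fell by 1.49, and Nkx6-2, a homeobox gene of the dorsal MGE, fell by 1.21. The 3 that rose were Lmo3 by 2.07, Dlx1 by 1.11 and Dlx2 by 0.53, and the DLX factors are shared by all ganglionic eminences. All of these had adjusted p values of at most 1.72e-05.

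Of 20 other genes of MGE-derived interneurons tested, 16 rose and none fell at E14.5, with a median of 1.45. The largest changes were those of Nos1, which encodes neuronal nitric oxide synthase, at 5.27, Tac1, the tachykinin precursor, at 2.66, and Gad1, which encodes the GABA-synthesizing enzyme GAD67, at 2.29. Gad1 had 14.6 ± 2.41 FPKM at E14.5 and 3.07 ± 0.438 FPKM at E11.5. Among 8 genes of cholinergic and pallidal neurons tested, 4 rose and 1 fell, with a median of 0.47. The 4 were Lmo3, Gbx1 at 1.22, Isl1 at 0.88 and Gbx2 at 0.54, and the 1 was Zic1 at -0.54. In lists of other origin, 5 of 11 genes of interneurons from the caudal and lateral eminences rose and 1 fell (median 0.36), 8 of 14 striatal genes rose and 2 fell (median 0.86), and 9 of 12 cortical genes rose and 2 fell (median 1.10). Some genes stand in more than 1 list. The share of all genes tested that was called with age was 24.4% higher and 19.0% lower.

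The lists were also compared between the litters at E14.5, where 4.47% of all genes tested were called in either direction. Of the 13 progenitor genes, Shh and Gsx1 (log2 fold change -0.84) were called lower in the second mother's embryos and none higher. Of the 20 interneuron genes, Nos1 at 0.89, Mef2c at 0.67 and Erbb4 at 0.55 were called higher and none lower. Nos1 had 3.59 and 3.71 FPKM in the second mother's embryos and 1.86 to 2.17 FPKM in the first mother's. Of the 8 cholinergic and pallidal genes, Gbx2 at -0.97 and Gbx1 at -0.71 were called lower. Of 14 striatal genes, 4 were called higher: Ikzf1 at 0.89, Drd1 at 0.77, Ppp1r1b at 0.71 and Rarb at 0.53. Of 12 cortical genes, 1 was called lower and none higher, with a list median of 0.15. The cortical list summed to 606 and 645 FPKM in the second mother's embryos and to 536 to 580 FPKM in the first mother's. Markers of other cell types moved between the same litters. Of 10 erythroid genes, 1 was called lower, the embryonic globin gene Hbb-y at -1.33, with 171 and 260 FPKM in the second mother's embryos and 436 to 646 FPKM in the first mother's. The erythroid median was -0.65, and the list summed to 978 and 1290 FPKM in the second mother's embryos and to 1220 to 1620 FPKM in the first mother's. Of 12 microglia and macrophage genes, 1 was called higher, the mannose receptor gene Mrc1 at 0.57, with a list median of 0.35 and sums of 46.0 and 49.9 FPKM in the second mother's embryos and 34.6 to 43.1 FPKM in the first mother's. Their part in the differences between the litters was not tested.

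Between the sexes at E14.5, none of the 7 members was called by edgeR or by DESeq2, while edgeR called 11.6% of all genes tested. An unadjusted p under 0.05 was found for 2 of the 7, and for 51.8% of all genes. Sst was the closest. Its 3 female values (52.7 to 59.6 FPKM) were all above its 3 male values (38.2 to 43.0 FPKM), with a log2 fold change of 0.45 (SE 0.085, adjusted p = 0.000575), 1.37-fold, just within the limit of 0.5. Lhx6 likewise did not overlap, at 17.4 to 21.5 FPKM in females and 15.4 to 16.8 FPKM in males (log2 fold change 0.27, SE 0.086, adjusted p = 0.0189). At the adjusted p alone these 2 of 7 were higher in females, as were 23.8% of all genes. The log2 fold changes of the others lay between -0.15 for Maf and 0.23 for Npy, with adjusted p values of 0.430 to 0.940, and the sexes overlapped. For Nkx2-1 and Lhx8 that overlap lay between the litters: within each litter, every female was above every male. With the mother as a block, the log2 fold change was 0.20 for Lhx8 (adjusted p = 0.0134) and 0.14 for Nkx2-1 (adjusted p = 0.0401), both within the limit of 0.5.

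The sex difference of Sst and Lhx6 at E14.5 moved with the GC and length correction. With it, Sst had a log2 fold change of 0.17 (adjusted p = 0.221) and Lhx6 of 0.06 (adjusted p = 0.673). With the mother as a block as well, the log2 fold change was 0.17 for Sst (adjusted p = 0.0226), 0.055 for Lhx6 (adjusted p = 0.314), 0.245 for Sox6 (adjusted p = 1.01e-06), 0.183 for Lhx8 (adjusted p = 0.0307) and -0.152 for Nkx2-1 (adjusted p = 0.0174), all within the limit of 0.5. The sign of Nkx2-1 thus turned with the correction. The GC content of the Sst transcripts is 56.0% and that of the Lhx6 transcripts 55.1%. Over the whole table the correction left 353 calls, 118 of them higher in females, against 1677 calls without it, 865 of them higher. In limma on log2(FPKM + 0.1), 1081 of 1642 calls were higher in females. Without female 2 or without male 3, Sst was called, at 0.51 (adjusted p = 0.000692) and 0.50 (adjusted p = 0.000527). Each group of 3 also has its own series of library numbers, so that group and library series cannot be told apart.

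Of 13 MGE progenitor genes, Dlx2 and Gli1 were called higher in E14.5 females, by 0.65 and 0.51, and of 20 interneuron genes, Dlx5, Slc32a1, which encodes the vesicular GABA transporter, and Elfn1 were, by 0.62, 0.59 and 0.55. None was called lower in either list, and 5.98% of all genes were called higher. After the GC and length correction, these 5 genes were at 0.32 for Dlx2, 0.13 for Gli1, 0.44 for Dlx5, 0.16 for Slc32a1 and 0.22 for Elfn1, all within the limit of 0.5, and 0.816% of all genes were called higher. Without the correction, the list medians were 0.25 and 0.03, against 0.002 over all genes. With it they were 0.05 and 0.09, against 0.018. In the cortical list, 3 of 12 were higher and none lower without the correction (median 0.19). With it none of the 12 was called (median -0.00). In the cholinergic and pallidal list, none of 8 was higher and 1 was lower without the correction (median -0.09). With it none of the 8 was called (median -0.07). Of 11 caudal and lateral interneuron genes, 1 was higher and none lower, without and with the correction (medians 0.09 and 0.03). Of 14 striatal genes none was called without or with it (median -0.03 in both).

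At E11.5, none of the 7 was called between the sexes by edgeR or by DESeq2, while edgeR called 0.374% of all genes. An unadjusted p under 0.05 was found for 1 of the 7, Sst, and for 18.2% of all genes. Sst had 9, 7 and 5 counts in females and 15, 22 and 12 in males, without overlap (log2 fold change -1.06, SE 0.31, adjusted p = 0.0854). With the mother of each embryo as a block the value was -1.05 (adjusted p = 0.0261), which passes, as it did without the second mother's E14.5 libraries (adjusted p = 0.0452) and in limma's test on log2(FPKM + 0.1) (-0.95, adjusted p = 0.0166). It did not pass with the GC and length correction (-1.04, adjusted p = 0.218), fell within the limit in limma's test on log2(FPKM + 1) (-0.44), and had an adjusted p of 0.0724 to 0.369 with single libraries left out. The sources used here differ on the E11.5 litters, and the block takes 3 mothers from the study's table of embryos, whereas the study's text gives fewer litters. The other members had log2 fold changes of -0.36 for Npy to 0.10 for Lhx8, with adjusted p values of 0.424 to 0.935, and overlapping sexes.

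The change of the female to male log2 ratio between the ages was tested directly. It was 1.51 for Sst (SE 0.32, adjusted p = 0.00175) and 0.43 for Lhx6 (SE 0.13, adjusted p = 0.0169), 2 of 7 members, against 39.1% of all genes at the adjusted p alone. With the litter block Nkx2-1 passed too, at 0.26 (adjusted p = 0.00512). With the GC and length correction none of the 7 passed, with Sst at 1.21 (adjusted p = 0.0519) and Lhx6 at 0.14 (adjusted p = 0.545). With both the correction and the block, Sst at 1.21 (adjusted p = 0.0064) and Sox6 at 0.20 (adjusted p = 0.00233) passed and Lhx6 at 0.13 (adjusted p = 0.147) did not.

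**Figure D5:**
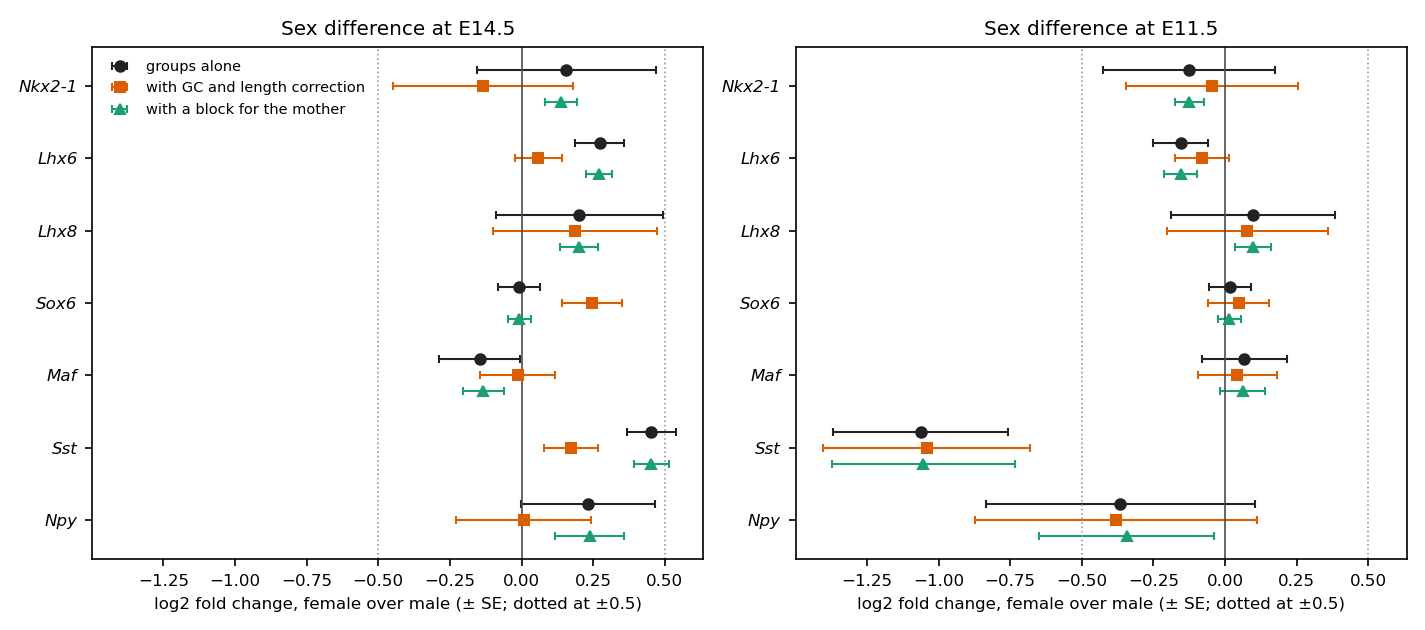
Log2 fold change of the counts, female over male (x axis, bars SE, dotted lines at -0.5 and 0.5), at E14.5 (left) and E11.5 (right), from the groups alone, with the GC and length correction and with a block for the mother. Sst lies to the right of 0 at E14.5 and to the left at E11.5, and the correction moves Sst and Lhx6 toward 0 at E14.5.

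For each member, the 3 genes with the most similar profile were found among 12162 genes, as those with the smallest root mean square difference of centred log2 counts, scaled to library size, over the 12 libraries. Closest to Nkx2-1 were 3 entries named Tmem254b (0.173 to 0.174), whose reads may be shared among near-identical copies. Closest to Lhx8 was AI606473 (0.132), with 4.19 FPKM at E14.5 and 4.34 at E11.5, and then Optc (0.22) and Dhx35 (0.227). Lhx6 was most like Tceal6 (0.108), Gdap1l1 (0.113) and Crmp1 (0.114), Crmp1 being a cytoskeletal protein gene of young neurons at 217 FPKM at E14.5 and 78.2 at E11.5. Sox6 had the nearest neighbours of all, Zswim5 (0.054), Tubgcp2 (0.057) and Vps16 (0.059), each nearly as high at 1 age as at the other. Maf was most like Ndrg3 (0.102), Arrdc4 (0.104) and Man1a (0.107). Sst had more distant neighbours, Zfhx2os (0.388), Neurod2 (0.404), a bHLH gene of cortical excitatory neurons with 60.2 FPKM at E14.5 and 1.5 at E11.5, and Kctd4 (0.413). Npy was most like Eef1a2 (0.268), a translation elongation factor gene of mature neurons, Dlgap1 (0.325) and Car10 (0.337).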

How the data were processed

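Poly(A) RNA of 12 telencephalons, 1 embryo each, was sequenced by the authors on a stranded protocol with paired reads of 100 bases. The authors aligned reads with STAR 2.6.0c to GRCm38 and deposited an estimated count and an FPKM value per gene and library, with no normalization between libraries. Of the counts, 82.7% are whole. The treatment of multiply matching reads is not given in the sources used here.

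The estimated counts were rounded and tested in edgeR 4.0.16 (R 4.3.3, TMM normalization, robust quasi-likelihood test, Benjamini-Hochberg adjustment over the 14454 genes whose mean count reached 16 in some group). All 4 groups entered 1 model, which left 8 residual degrees of freedom. Levels are given in the deposited FPKM. Calls needed an adjusted p below 0.05 and a log2 fold change beyond 0.5 in size, and a change of the sex difference at the adjusted p alone. The members and lists were chosen with earlier results of these data known. Named beside the members were, per list and comparison, up to 3 called genes per direction, by size of change (all where 5 or fewer were called). For some lists and comparisons only counts and medians are given, and their called genes are not named. Per member the 3 most similar genes were named, out of those reaching a mean count of 100. Ptch1 and Pvalb were named after their values were seen.

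Mothers were taken from the study's table of embryos, which lists 3 mothers at E11.5, 1 per replicate number (the study's text gives fewer litters there), and 2 at E14.5, of which the first bore replicates 1 and 2 of both sexes. Deviations from the group means correlated between the female and the male of a number at 0.214, 0.271 and 0.560 at E14.5 and at 0.067, 0.132 and 0.225 at E11.5. Embryos that share a mother are not fully independent, so p-values measure the spread between these embryos. The GC and length correction fitted a loess surface (span 0.5) per library, with GC content known for 25905 genes (98.9%). It also removes any true difference that follows GC content. Alternatives were DESeq2 1.42.0, limma 3.58.1 on log2 FPKM, other normalizations, filters and thresholds, blocks and single libraries left out. The tests were checked on simulated counts. Depth limits Sst and Npy at E11.5, which had 5 to 31 counts per library.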

Additional observations from a re-analysis of the deposited data

Results flagged for a closer look

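The sex difference of 2 genes changed between the ages by the test of that change itself. For Sst the log2 ratio of female to male was 1.51 higher at E14.5 than at E11.5 (adjusted p = 0.00175, edgeR), with all 3 females above all 3 males at E14.5 and all 3 females under all 3 males at E11.5. For Lhx6 it was 0.43 higher (adjusted p = 0.0169). The same test passed for 39.1% of all genes. With the GC and length correction it passed for neither, and with the correction and the litter block together it passed for Sst (1.21, adjusted p = 0.0064) and not for Lhx6 (0.13, adjusted p = 0.147).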

How the results depend on the processing

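Of the 5 calls with age, those of Lhx6, Sst and Npy held under every alternative. Without the second mother's libraries (chosen after seeing the data) 3 members stayed past the limit, with Nkx2-1 at -0.43 and Maf at 0.49, as 3 did with a log2 limit of 1, and Maf was at 0.48 in limma on log2(FPKM + 1). Lhx8, not called, turned to 0.12 without those libraries. Between the sexes at E14.5, 2 members were called at the adjusted p alone. At E11.5 1 member, Sst, was called with the replicate block by litter, with and without the GC and length correction, in limma on log2(FPKM + 0.1) and without the second mother's libraries. The block by replicate number changed no call (Nkx2-1 with age -0.76, adjusted p = 0.00372). With the GC and length correction 0 members had a changed sex difference between the ages. The cause was not tested. Calls over all genes moved by over 1.5 times in some settings. With age they were 6265, 11807 at the adjusted p alone and 2800 with a limit of 1. At E14.5 they were 1677, 353 with the correction (468 with the block too), 888 in limma on log2(FPKM + 1), 6560 at the adjusted p alone and 113 with a limit of 1. At E11.5 they were 54, 97 for the age alone, 169 with the litter block (109 with the correction too), 124 without the second mother, 35 in limma on log2(FPKM + 1), 309 at the adjusted p alone, 15 with a limit of 1 and 21 to 67 with a library left out. Changed sex differences were 5651, and 1503 with the correction.

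Among the fold changes, other reversals were of values not called with all libraries. With the correction, Sox6 turned to -0.41 with age and to 0.246 between the sexes at E14.5 (0.245 with the litter block, adjusted p = 1.01e-06), and Nkx2-1 to -0.135 (-0.152 with the block, adjusted p = 0.0174). The change of the sex difference turned to 0.198 for Sox6, the same with the block (adjusted p = 0.00233), and to -0.089 for Nkx2-1 (-0.107 with the block). In limma on log2(FPKM + 0.1) and log2(FPKM + 1), Sox6 turned to 0.028 and 0.027 at E14.5, to -0.017 and -0.016 at E11.5 and to 0.045 and 0.042 in the change, and with a count minimum of 1 to 0.001 at E14.5. Of the ratios that had passed their test, 3 reversed: set against the Dlx genes, those of Lhx8, Sox6 and Maf turned to -1.18, -0.92 and -0.34. The log2 ratio of Sst to Nkx2-1 differed between the ages, E14.5 minus E11.5, by 7.65 in females and 6.37 in males, with p = 0.1 in the exact permutation test, the smallest that 3 against 3 can give.

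With each library left out in turn, 5 members stayed called with age, and 0 to 1 between the sexes at E14.5. Lhx8 with age ran from -0.23 to 0.003. The E14.5 sex difference ran from -0.101 to 0.434 for Nkx2-1, -0.086 to 0.438 for Lhx8, -0.080 to 0.048 for Sox6 and -0.249 to 0.049 for Maf. At E11.5 it ran from -0.046 to 0.052 for Sox6, -0.065 to 0.136 for Maf and -0.796 to 0.265 for Npy. Its change ran from -0.182 to 0.342 for Lhx8, -0.096 to 0.038 for Sox6 and -0.037 to 1.03 for Npy.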
